A study of Mus musculus with 20 samples.

Results

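The genes described here are the potassium channel genes of the mouse: every gene on the array whose symbol begins with Kcn, except Kcnj10, Kcnj13 and Kcne2. They numbered 81 of the 18193 genes with a probe set of a single symbol, and 65 of them were among the 13351 genes bright enough to be tested. Each gene was represented by its probe set with the highest mean log2(signal + 16) over all 20 arrays. Messenger RNA from the neocortex of 20 singly housed male B6C3F1 mice, the F1 hybrid of the C57BL/6 and C3H strains, was measured on Affymetrix arrays, with 1 array per mouse and 5 mice per group. Mice of the first supplement group were 30 months old and had received α-tocopherol at 1000 mg/kg from 15 months of age. Those of the second, likewise 30 months old and supplemented from 15 months, had received both forms of the vitamin, each at 500 mg/kg (the α- and γ-tocopherol mixture). The controls, on the control diet throughout, were old (30 months) or young (5 months). The young mice were given no supplement, so a diet effect can be read in old mice only.

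Potassium channels let potassium leave a cell down its gradient and so set the resting potential, end the action potential and space the next one. Voltage-gated (Kv) channels are tetramers of pore-forming alpha subunits, to which cytoplasmic or membrane-bound auxiliary subunits attach and change gating and surface delivery. Inward rectifiers and K2P background channels hold neurons and glia near rest, while calcium-activated channels couple calcium entry to repolarisation. In neocortex, A-type currents of Kv4 channels with their KChIP partners limit back-propagating dendritic spikes, and KCNQ channels carry the M current that acetylcholine turns off.

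The arrays shared a 2% trimmed mean of 1000, whereas the median over probe sets was 280.3 to 317.7 in α-tocopherol, 292.2 to 331.5 in mixture, 283.7 to 313.3 in old control and 316.1 to 331.2 in young control mice. The ratio of 3′ to 5′ β-actin signal, which falls with more complete RNA or labelling, was 1.43 to 2.36 in α-tocopherol, 1.22 to 1.60 in mixture, 1.73 to 2.52 in old control and 1.42 to 1.74 in young control mice. The ranges of the mixture and old control groups did not overlap. Among the genes tested were 6 markers of neocortical excitatory neurons, Slc17a7 and Tbr1 included. The summed signal of 6 astrocyte markers was 56373 to 63107 in old control and 39275 to 41667 in young control mice, and all 6 were higher with age. Choroid plexus markers summed to between 8776 and 51320 in old control and between 27327 and 40859 in young control mice. A deposited signal cannot separate more cells of a type from more RNA per cell, and levels of different genes cannot be compared between their probe sets.

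The comparison of old with young controls asked which potassium channel genes differed between 30 and 5 months of age. Among the 65 tested, 13 passed an adjusted p of 0.05 in limma, 8 of them higher and 5 lower in old mice. With array medians set equal, which moved the median of all genes from -0.02 to 0.11, 15 were higher and 1, Kcnip4, lower. Across all genes tested 3039 of 13351 passed (22.8%), with 12.4% higher and 10.4% lower, so the share of potassium channel genes called (20%) was near the background. The median difference was 0.02 on the log2 scale for the potassium channel genes and -0.02 for all genes tested. The median size of a difference, whatever its sign, was 0.23 for the potassium channel genes and 0.18 for all genes. The signals of old and young controls did not overlap for 9 of the 65 genes (13.8%), beside 16.6% of all genes. Differences ran from -1.08 for Kcna7 to 1.55 for Kcnip3, and Kcna7, which did not pass, had the widest spread of the 65, with a residual standard deviation of 0.92 on the log2 scale. When the β-actin ratio entered the fit, 7 of the 65 genes were called, beside 1158 of all genes: Kcnab1, Kcnc4, Kcnip1, Kcnip4, Kcnj8, Kcnk3 and Kcnn2 no longer passed, and Kcna7 did. The differences of the lost genes in that fit were 1.02 for Kcnk3, 0.97 for Kcnj8, 0.42 for Kcnc4, -0.52 for Kcnip1, -0.42 for Kcnip4, -0.32 for Kcnn2 and -0.22 for Kcnab1, each of the same sign as without the covariate.

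**Figure D1:**
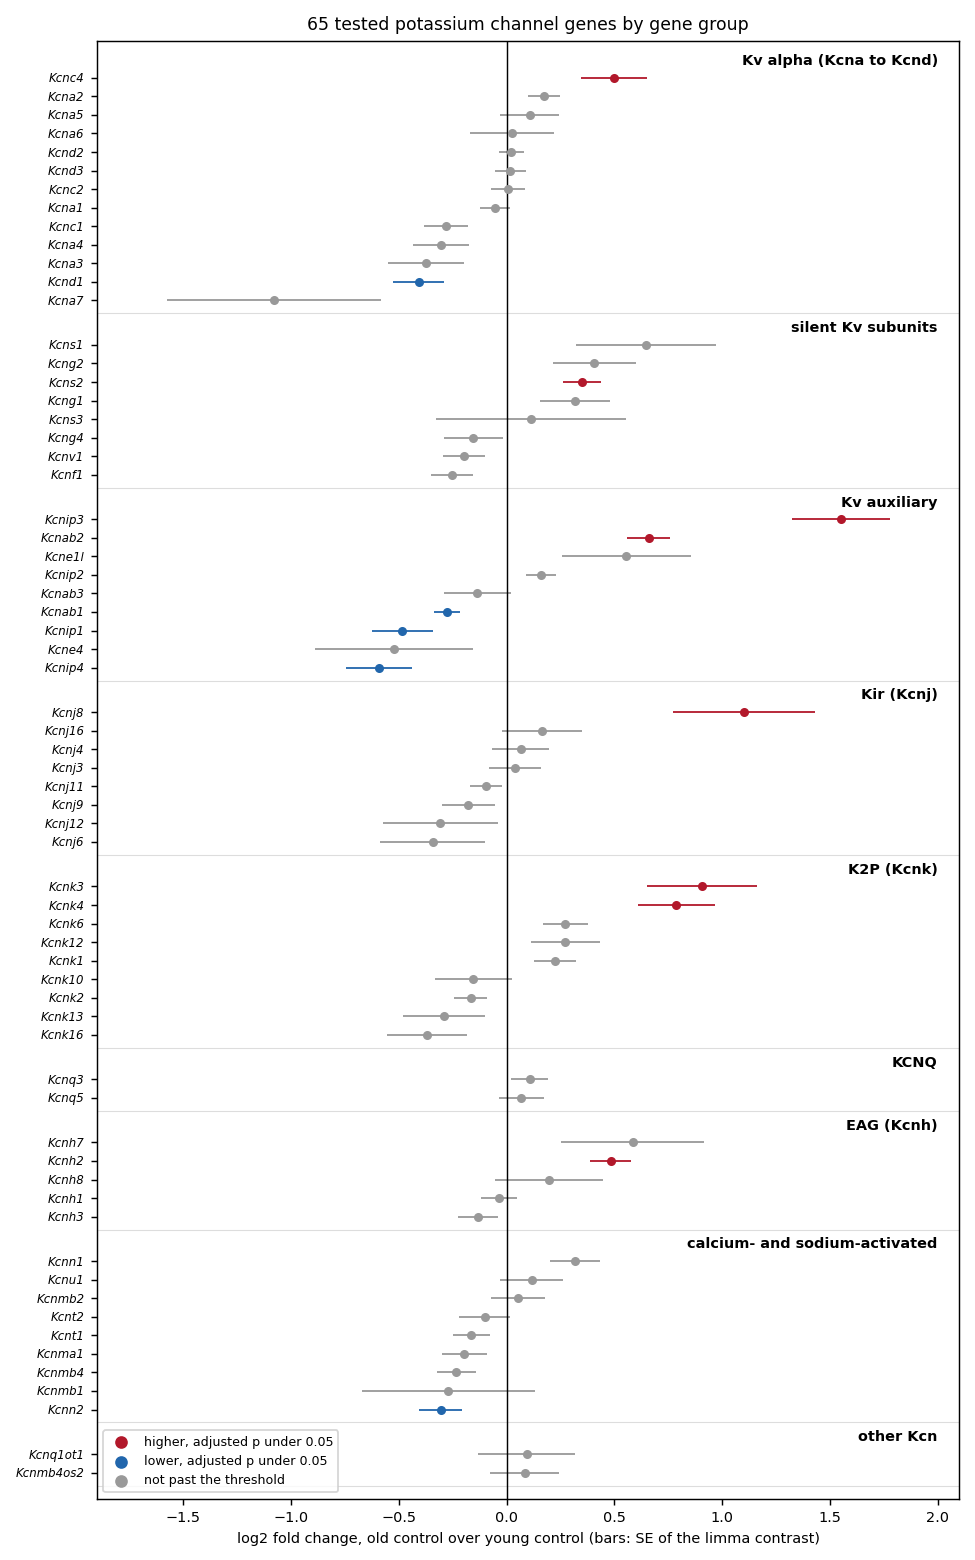
Log2 difference between old and young control neocortex for the 65 potassium channel genes tested, ordered by gene group, with bars of 1 SE from the limma contrast (n = 5 mice per group). Called genes (8 higher and 5 lower) are set apart by colour, and Kcnip3 lies farthest from 0 at 1.55.

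The auxiliary subunits of Kv channels held the most calls of any gene group, with 5 of 9 tested members called, 2 higher and 3 lower. That is 55.6%, beside 22.8% of all genes tested, and no test of the group was made. The 3 lower genes, Kcnab1, Kcnip1 and Kcnip4, were no longer called with the β-actin covariate. The 9 tested members had a median difference of -0.14 and a median size of 0.52, beside 0.23 for all 65 genes and 0.18 for all genes tested. The KChIP family went in both directions. Kcnip3, which encodes a calcium-binding KChIP that attaches to Kv4 channels and is also known as calsenilin or DREAM, a calcium-sensitive transcriptional repressor, rose, whereas Kcnip4 and Kcnip1, 2 other KChIPs, fell. The remaining member of that family, Kcnip2, had a difference of 0.16 ± 0.07 (adjusted p = 0.0973). The 2 β subunits of Kv1 channels that were called were likewise opposed, Kcnab2 higher and Kcnab1 lower.

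Kcnip3 had signals of 2052, 1329.5, 1359, 1916 and 1928 in old controls, against 274, 579.5, 1191, 451 and 667 in young controls. Every old control lay above every young one, although the young mice were spread over a wide range with 1 near the old group. The difference was 1.55 ± 0.23 on the log2 scale (SE), a rise of 2.93-fold (adjusted p = 0.000114, limma), and it stayed called in every one of the alternatives run. A second probe set of the gene gave 0.28, which did not pass (adjusted p = 0.145 with probe sets tested one by one). In the supplement groups Kcnip3 signals were 1821, 1429, 1579, 1891 and 1743 with α-tocopherol and 1759.8, 1888, 1818, 1621 and 1719 with the mixture, all within the range of old controls. The difference from old control had a 95% interval of -0.47 to 0.46 for α-tocopherol and -0.41 to 0.53 for the mixture, so neither interval reached the size of the age difference.

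Kcnip4 signals were 2952, 3188, 1698, 3169.8 and 2431 in old controls, against 3682, 4646, 3756, 3408 and 4415 in young controls, with no overlap. The gene fell by 0.59 ± 0.15 on the log2 scale (adjusted p = 0.00843). All 3 of its probe sets above the signal limit pointed the same way, at -0.59, -0.58 and -0.51. Mouse 3 of the old controls had the lowest signal of that group. Without old control mice 3 and 5, an alternative chosen after seeing the data, the difference was -0.35 and the adjusted p 0.0956.

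Kcnip1, expressed in interneurons among other cells, had 1821, 2156, 1539.5, 1915 and 1244 in old controls, against 2479.6, 2421, 2323, 2138 and 2624 in young controls. The groups touched, since the highest old control lay just above the lowest young control. The difference was -0.48 ± 0.14 (adjusted p = 0.0168), and the second probe set gave -0.49. The other probe sets, below the signal limit, gave 0.15 and 0.01, and the mean of all of them was -0.21 and not called (adjusted p = 0.258). Leaving out old control mouse 5 brought the adjusted p to 0.0574, and equal array medians gave -0.35 (adjusted p = 0.0891). The summed signal of 7 interneuron markers ranged from 52560 to 58168 in old and from 51015 to 55065 in young controls, and 2 of the 7 were higher and none lower.

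Kcnab2 encodes the β2 subunit of Kv1 channels, a cytoplasmic protein with an aldo-keto reductase fold that helps deliver these channels to axons. It measured 8057, 6976, 7486, 8271 and 8299.9 in old controls, against 5805, 4605, 5397, 4930.4 and 4118 in young controls, and no old value fell below a young one. It rose by 0.66 ± 0.10 on the log2 scale, or 1.58-fold (adjusted p = 0.000165), with 1.29 at its second probe set. Kcnab1, whose amino terminus can plug the Kv1 pore and cause fast inactivation, showed the opposite and much tighter pattern. Its signals were 5619.5, 5485, 5761, 5803 and 5682 in old controls, against 6716, 6846, 6940.1, 6861 and 6989 in young controls. It fell by 0.28 ± 0.06 (adjusted p = 0.00249), a difference of 1.21-fold that was small beside that of Kcnip3 but exceeded the spread of both groups, and -0.33 at the second probe set. When array medians were set equal, Kcnab1 was at -0.14 (adjusted p = 0.141) and no longer called.

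**Figure D2:**
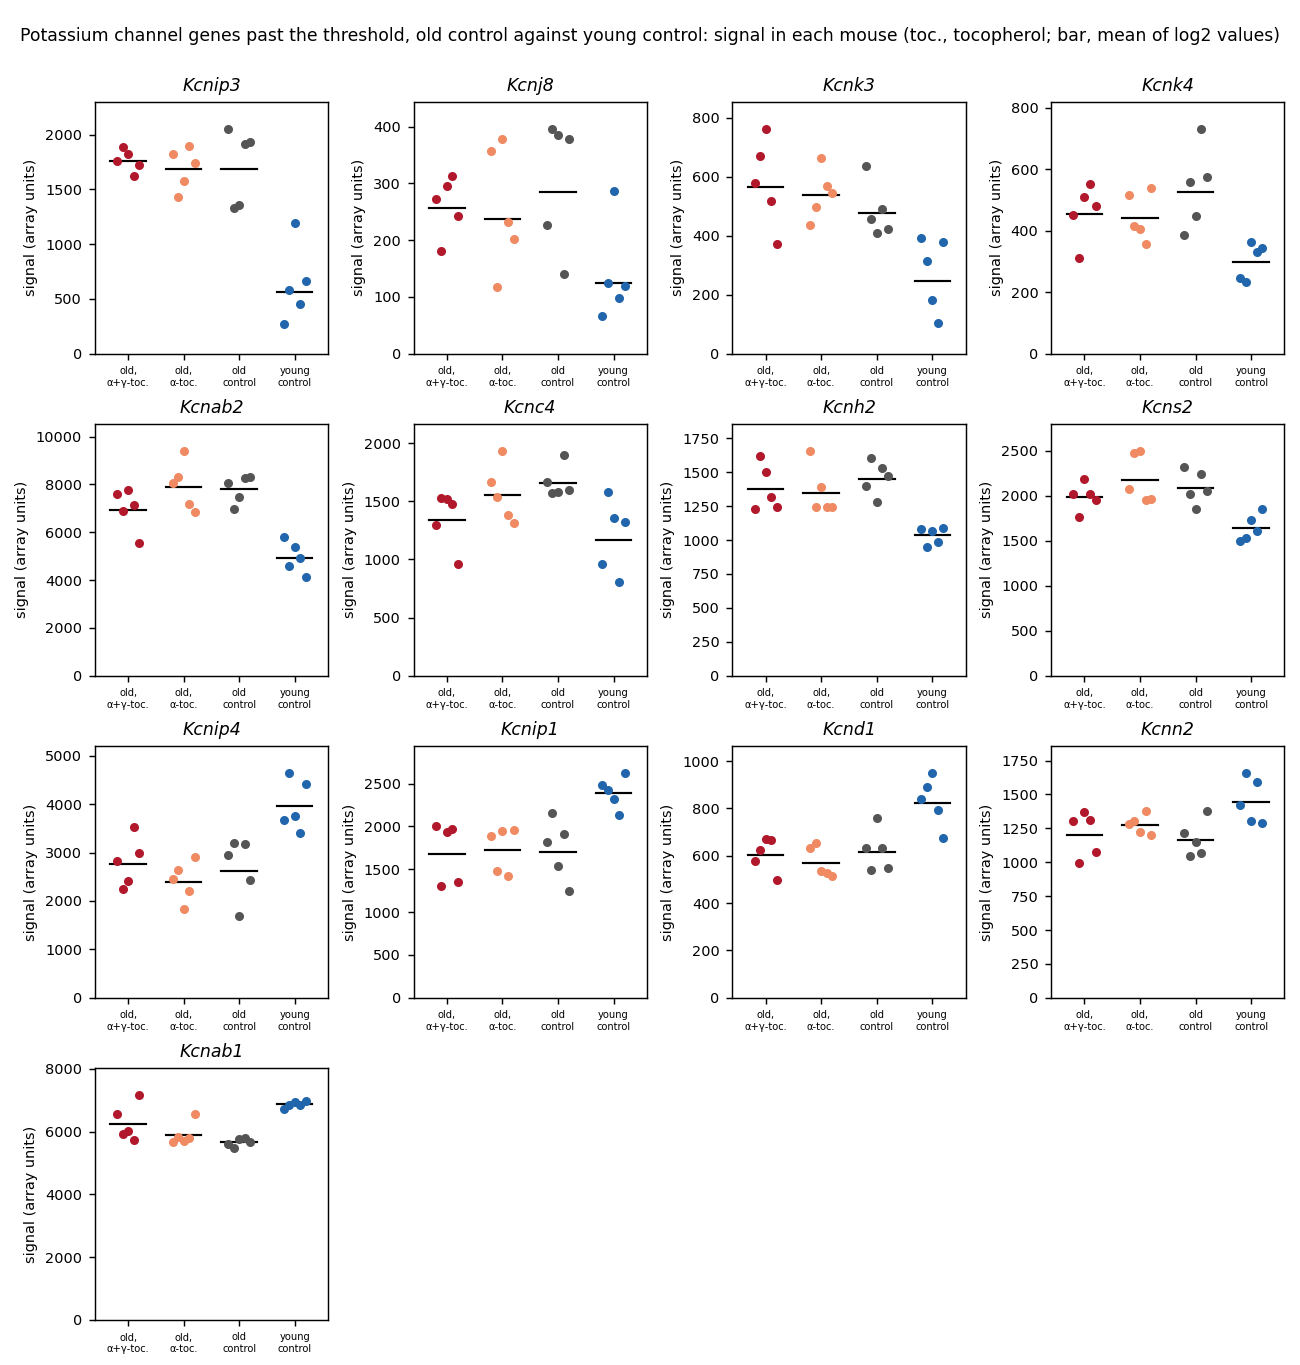
Deposited signal of each mouse for the 13 potassium channel genes called between old and young controls, on linear axes that start at 0, with groups from left to right mixture, α-tocopherol, old control and young control. Kcnip3 and Kcnab2 have every old control above every young control, and Kcnip4 and Kcnab1 have every old control below.

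Promoters are shown for Kcnip3 and Kcnab2, the potassium channel genes with the smallest adjusted p with age, for Kcnip4, a KChIP gene that differed in the opposite direction to Kcnip3, and for Kcnd3, the one with the smallest adjusted p in the mixture comparison. They are the RefSeq windows of assembly GRCm38.p6 from 250 bases before to 50 after the outermost listed start, written 5′ to 3′ on the gene's strand. Capitals mark a GC box core (GGGCGG or its reverse complement CCGCCC) or a CCAAT box (CCAAT or ATTGG). Kcnip3 lies at chr2:127522045-127522344 on the minus strand, Kcnab2 at chr4:152477500-152477799 on the minus strand, Kcnip4 at chr5:49285610-49285909 on the minus strand and Kcnd3 at chr3:105451640-105451939 on the plus strand.
Kcnip3: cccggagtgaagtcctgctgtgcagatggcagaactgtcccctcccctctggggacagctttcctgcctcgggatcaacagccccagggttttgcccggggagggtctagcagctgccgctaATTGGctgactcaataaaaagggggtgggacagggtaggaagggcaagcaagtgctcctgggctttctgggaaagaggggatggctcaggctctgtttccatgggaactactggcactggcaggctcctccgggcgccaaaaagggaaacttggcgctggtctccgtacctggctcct
Kcnab2: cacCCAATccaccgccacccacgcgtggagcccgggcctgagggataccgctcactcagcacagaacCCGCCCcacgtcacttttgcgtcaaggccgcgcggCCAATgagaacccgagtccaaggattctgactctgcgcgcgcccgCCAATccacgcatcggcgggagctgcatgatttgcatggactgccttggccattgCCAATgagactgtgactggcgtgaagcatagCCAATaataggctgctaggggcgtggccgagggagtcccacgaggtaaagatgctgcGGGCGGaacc
Kcnip4: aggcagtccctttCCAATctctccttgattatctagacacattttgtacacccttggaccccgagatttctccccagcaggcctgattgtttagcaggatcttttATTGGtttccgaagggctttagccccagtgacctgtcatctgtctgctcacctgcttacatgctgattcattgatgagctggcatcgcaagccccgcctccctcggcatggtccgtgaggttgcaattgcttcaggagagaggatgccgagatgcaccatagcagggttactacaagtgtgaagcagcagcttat
Kcnd3: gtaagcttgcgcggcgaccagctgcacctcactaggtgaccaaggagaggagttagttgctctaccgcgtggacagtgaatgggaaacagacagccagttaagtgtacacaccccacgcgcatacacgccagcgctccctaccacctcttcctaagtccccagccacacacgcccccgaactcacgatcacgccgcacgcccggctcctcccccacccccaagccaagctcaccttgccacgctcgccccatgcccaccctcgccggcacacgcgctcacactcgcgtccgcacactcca
The Kcnab2 window holds 5 CCAAT boxes, 2 GC box cores and 25 CpG dinucleotides. Those of the opposed KChIP genes differ little in these counts: Kcnip3 has 1 CCAAT box, no GC box core and 8 CpG, and Kcnip4 has 2 CCAAT boxes, no GC box core and 7 CpG. The Kcnd3 window is rich in CpG (25) but has neither motif. Each gene has up to 3 listed starts, and only 1 is shown.

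Both motifs are common in all promoters. The GC box core, searched on both strands, was in 35.7% of 32851 RefSeq windows and in 33 of 73 windows (45.2%) of the 50 tested potassium channel genes with an entry. The CCAAT box was in 37.4% of all windows and in 22 of 73 (30.1%). The core of the cyclic AMP response element (TGACG or CGTCA) was in 20.8% of all windows and 12 of 73 (16.4%), and the TATA box (TATAAA or TTTATA) in 13.6% and 3 of 73 (4.11%). Counted by gene over any of its windows, the GC box core was found in 7 of the 9 called genes with an entry, beside 31 of all 50, the CCAAT box in 4 of 9, beside 18 of 50, and the cyclic AMP response element core in 3 of 9, beside 12 of 50. A match is a string of letters in the window and not a measured binding site.

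The pore-forming Kv alpha subunits (Kcna to Kcnd) were all above the signal limit, and 2 of 13 were called with age, Kcnc4 higher and Kcnd1 lower, with a median difference of 0.01. Kcnd1 encodes a Kv4 subunit of the A-type current. It had 635, 539, 758, 631 and 547 in old controls, against 838, 892, 949.5, 791 and 676 in young controls, with 1 old mouse inside the young range. The difference was -0.41 ± 0.12 (adjusted p = 0.0159), and -0.28 with equal array medians, which was not called (adjusted p = 0.0946). Its other probe sets gave -0.42 and -0.04. The other Kv4 subunits, Kcnd2 at 0.02 ± 0.06 and Kcnd3 at 0.02 ± 0.07, were close to 0 with age. Kcna1, an axonal Kv1 subunit, had the probe set with the highest mean signal in the group and differed by -0.05 ± 0.07 (adjusted p = 0.617).

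Kcnc4, a rapidly inactivating Kv3 subunit, had 1670.3, 1569, 1584, 1899 and 1595 in old controls, against 960.4, 1584, 1357, 805 and 1318 in young controls. The groups overlapped, since young control mouse 2 lay among the old mice. The difference was 0.50 ± 0.15 (adjusted p = 0.0216), from a probe set whose name marks that it can detect several transcripts, and the second probe set gave 0.06. The call was lost without old control mouse 4 (adjusted p = 0.0573) and without young control mouse 1 (0.0592) or mouse 4 (0.0717).

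Silent Kv subunits, which form no channel alone but modify Kv2 channels, had 1 called gene among 8 tested of 9, and a median difference of 0.22. Kcns2 signals were 2316, 2019, 1852, 2241 and 2052 in old controls, against 1492, 1535, 1735, 1609 and 1847 in young controls. No old value lay below a young one, though by a small margin, and the rise was 0.35 ± 0.09 (adjusted p = 0.00711). The other probe set of Kcns2 gave -0.44, the opposite sign, and the mean of both was -0.047. Kcnf1, with the highest mean signal of the group, had non-overlapping groups with lower values in old mice, at -0.25 ± 0.10, and just missed the threshold (adjusted p = 0.0613).

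Among the inward rectifiers (Kcnj) 8 of 13 were tested and 1 was called. Kcnj8 encodes Kir6.1, the pore of the ATP-sensitive channel of vascular smooth muscle and pericytes. It was dim, with 226, 396, 385, 141 and 378 in old controls, against 66.3, 125, 288, 98.2 and 120.0 in young controls, and the groups overlapped. The rise was 1.10 ± 0.33 (adjusted p = 0.0194), and it was lost without old control mouse 5 (adjusted p = 0.0503) or young control mouse 1 (0.0573). Its sulfonylurea-receptor partner Abcc9 was at -0.27 (adjusted p = 0.227), and the pericyte markers Pdgfrb and Rgs5 were at 0.40 and 0.17 (adjusted p = 0.0853 and 0.252). The summed signal of 6 endothelial and pericyte markers was 6981 to 8573 in old and 7151 to 7838 in young controls, and the 1 called member, the endothelial Cldn5, was lower at -0.34 (adjusted p = 0.0283). Kcnj9, a G-protein-gated rectifier subunit with the highest mean signal of the group, was at -0.18 ± 0.12 (adjusted p = 0.308).

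The K2P channels (Kcnk), which have a pair of pore domains in each subunit and carry background potassium current, had 2 called genes among 9 tested of 12, and a median difference of 0.22. Kcnk3 encodes the acid-sensitive channel TASK-1. Its signals were 635, 458, 409.6, 492 and 421 in old controls, against 392, 314, 182, 103 and 379.5 in young controls, with no overlap but wide spread in the young. It rose by 0.91 ± 0.26, or 1.87-fold (adjusted p = 0.0138). Its other probe sets, both far below the signal limit, gave 0.24 and -0.23, and the mean of all of them was 0.31 and not called (adjusted p = 0.173). Kcnk4 encodes TRAAK, a channel opened by membrane stretch that sits at nodes of Ranvier. It had 385, 557, 449, 732 and 574 in old controls, against 247, 232, 364, 331 and 343 in young controls, again with no overlap. The rise was 0.79 ± 0.18, or 1.73-fold (adjusted p = 0.00339). Kcnk1, with the highest mean signal of the group, was at 0.22 ± 0.10 (adjusted p = 0.0911). The summed signal of 6 oligodendrocyte markers was also higher in old controls, 75109 to 92526 against 56408 to 68321 in young controls, and its part in the Kcnk4 difference was not tested.

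Neither tested KCNQ gene was called. Kcnq3 and Kcnq5, subunits of the M current, had differences of 0.11 ± 0.09 and 0.07 ± 0.11, and both 95% intervals lay within 1.5-fold. Of 5 tested EAG-family genes, Kcnh2 was called. It encodes ERG1, known for cardiac repolarisation and for limiting repetitive firing. Signals of Kcnh2 were 1399.8, 1603, 1279, 1531 and 1470.3 in old controls, against 1079.9, 952, 1068, 988 and 1092 in young controls, 2 tight groups with a clear gap. It rose by 0.48 ± 0.09, or 1.4-fold (adjusted p = 0.00119). The related Kcnh3 was at -0.13 ± 0.09 and Kcnh7 at 0.58 ± 0.33, neither called (adjusted p = 0.31 and 0.206).

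Among 9 tested calcium- and sodium-activated channel genes the median difference was -0.16 and 1 was called. Kcnn2, the small-conductance SK2 channel of the afterhyperpolarisation, had 1216, 1047, 1151, 1068 and 1375 in old controls, against 1423, 1659, 1301, 1592 and 1288 in young controls, and the groups overlapped. It fell by 0.31 ± 0.10 (adjusted p = 0.0293), and was no longer called without old control mouse 2 (0.0732) or 4 (0.0740), or without young control mouse 2 (0.0871) or 4 (0.0727). With equal array medians it was at -0.17 (adjusted p = 0.253). Its relative Kcnn1 was at 0.32 ± 0.12 in the other direction (adjusted p = 0.053), and Kcnmb4, the neuronal β subunit of the large-conductance channel, at -0.23 ± 0.09 (adjusted p = 0.0629). The 2 tested transcripts that are not channel genes, Kcnmb4os2 and Kcnq1ot1, were at 0.08 ± 0.16 and 0.09 ± 0.22.

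Whether the bright probe sets of a gene shared a sign with age could be read for 33 of the 65 genes. Of the 8 called genes with a second bright probe set, 7 had all of them on the same side of 0 (Kcns2 was the exception). Of the 25 uncalled genes with a second bright probe set, 8 did. A shared sign is not a repeated call. Among the called genes, another probe set also passed, with probe sets tested one by one, only for Kcnab2, Kcnip1 and Kcnip4.

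**Figure D3:**
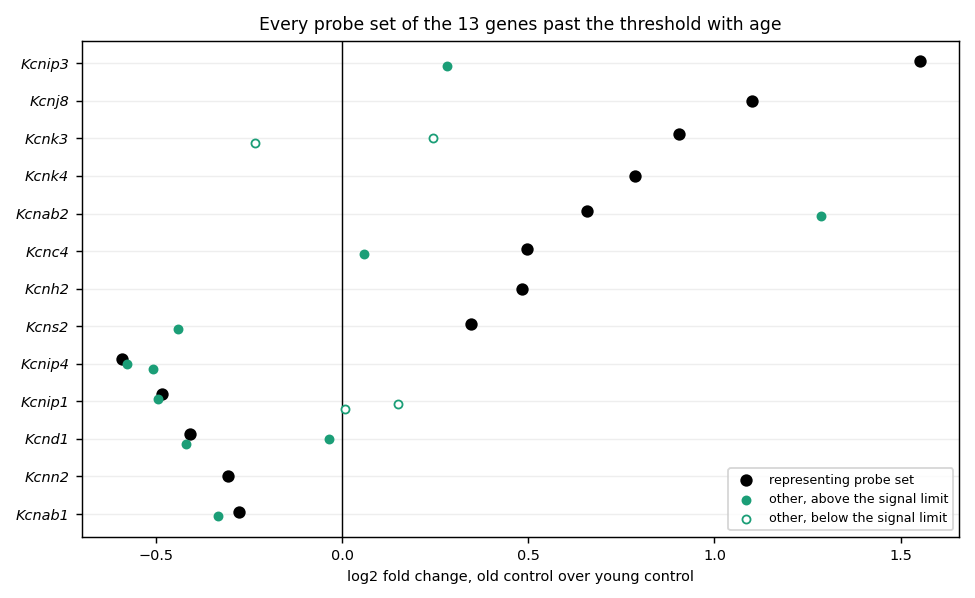
Log2 difference between old and young controls for every probe set of the 13 called genes, with the probe set that represents each gene set apart. The probe sets of Kcnip4 that are above the signal limit lie between -0.59 and -0.51, while those of Kcns2 lie on both sides of 0.

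Channels and transporters that work beside potassium channels were read from lists. Of all genes tested, 12.4% were called higher and 10.4% lower with age. Of 9 tested voltage-gated sodium and HCN channel genes, 5 were higher with age and none lower, with a median of 0.24. The largest of these was Hcn2, a pacemaker channel, at 1.01 (adjusted p = 0.000461), beside the sodium channel genes Scn4b at 0.46, Scn2b at 0.39, Scn2a at 0.27 and Scn1a at 0.24. Of 7 tested sodium pump and potassium-chloride cotransporter genes 3 were higher and none lower: the pump subunits Atp1b2 at 0.55 and Atp1b1 at 0.24, and the cotransporter Slc12a2 at 0.30. These 2 lists hold few genes, and no test of the lists was made.

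Of 19 tested partner genes, 4 were higher and 1 lower in old controls, with a median of 0.06. Among all genes tested the shares were 12.4% higher and 10.4% lower. Amigo1, a Kv2 partner, was at 1.07 and Ank3, the axon initial segment anchor of sodium and KCNQ channels, at 0.76. Lgi1, secreted and linked to Kv1 inactivation, was at 0.58, and Gnb1, a G-protein β subunit, at 0.57, while Akap7 was at -0.26. Of 11 tested receptors and kinases, 4 were higher, Prkaca at 0.37, Chrm1 at 0.31, Gabbr1 at 0.29 and Prkcb at 0.17, and Nedd4l, a ubiquitin ligase that acts on several channels, was lower at -0.30. The summed signal of 6 pan-neuronal markers was 113060 to 138314 in old and 107658 to 114197 in young controls, with 4 of 6 higher, and its part in these differences was not tested.

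Setting α-tocopherol mice against old controls asked whether that supplement changed potassium channel transcripts in old mice. No gene passed the threshold in limma, neither among the 65 nor among all 13351. At an unadjusted p under 0.05 there were 4 of the 65 and 753 of all genes. The median difference was 0.00 for the potassium channel genes and -0.01 for all genes tested. The difference had a 95% interval inside 1.5-fold in either direction for 49 of the 65 genes (75.4%), beside 88% of all genes, and inside 2-fold for 60 of the 65. For the other 5 genes the interval still held a 2-fold difference.

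The genes with the smallest p in each direction are given as values. Kcnj12, an inward rectifier, was at 0.52 ± 0.27, Kcnv1, a silent subunit, at 0.18 ± 0.10 and Kcnd2, the main Kv4 subunit of pyramidal cell dendrites, at 0.14 ± 0.06. On the lower side Kcnmb1, a β subunit best known from smooth muscle, was at -1.0 ± 0.40, Kcne4, a single-pass auxiliary subunit, at -0.94 ± 0.37 and Kcng4, a silent subunit, at -0.34 ± 0.14. Every adjusted p was at least 0.857. Kcnmb1 and Kcne4 had the widest spread of these 6 genes. Kcnmb1 signals were 39.8, 308, 286, 107 and 32.4 with α-tocopherol, against 331, 244, 240.2, 202 and 193 in old controls. Kcne4 signals were 68.7, 89.0, 407, 378 and 279 with α-tocopherol, against 525, 443, 320.2, 304 and 403 in old controls. In both genes the treated group overlapped the controls, with a few very low mice. The 13 genes called with age differed between α-tocopherol and old control by -0.25 to 0.17, and none was called. Both comparisons use the same old controls.

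The mixture of α- and γ-tocopherol was compared with old control in the same way. Of the 65 genes, 2 were called (3.08%), Kcnd3 higher and Kcnu1 lower, beside 603 of all genes tested (4.52%), of which 181 were higher and 422 lower. The median difference was 0.01 for the potassium channel genes and 0.00 for all genes. A second probe set of Kcnk1 was at 0.50 (adjusted p = 0.0227 in limma with probe sets tested one by one). Its signals were 1777 to 2149 in mixture mice and 1152 to 1566 in old controls. The Kcnk1 probe set with the highest signal was at -0.08. When the β-actin ratio entered the fit no gene was called among all 13351, and without old control mice 3 and 5 none was called either. The β-actin ratios of these groups did not overlap, and the summed signal of the 6 pan-neuronal markers was 95409 to 107815 in mixture mice and 113060 to 138314 in old controls. Called lower in mixture mice were 4 of the 6 pan-neuronal, 1 of 6 excitatory neuron and 1 of 5 oligodendrocyte markers. Called higher were 1 of 4 thalamus, 2 of 6 meninges, 1 of 5 choroid plexus and 1 of 5 microglia markers. The part of these marker differences in the Kcnd3 and Kcnu1 calls was not tested.

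Kcnd3 encodes Kv4.3, a pore-forming subunit of the A-type current found in interneurons and some pyramidal cells. Its signals were 4769, 4849.9, 4140.5, 4711 and 5545 with the mixture, against 3676, 3837, 3294, 3218 and 3411 in old controls. Every mixture mouse lay above every old control. The difference was 0.46 ± 0.07 on the log2 scale, a rise of 1.37-fold (adjusted p = 0.00611). Signals with α-tocopherol were 3875, 3816, 3893, 3667 and 3678, and those of young controls were 3606, 3529, 3469, 3535 and 3074, so the mixture group stood above all 3 other groups. Its other probe sets gave 0.21, 0.57 and -0.30, the last from a probe set below the signal limit. The mean of all probe sets of the gene gave a smaller difference of 0.23, which was not called (adjusted p = 0.325). With the β-actin covariate the difference was 0.41 (adjusted p = 0.267), and without old control mice 3 and 5 it was 0.42 (adjusted p = 0.0653).

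Kcnd2, which encodes Kv4.2 and forms channels with Kcnd3, also had non-overlapping groups. It measured 4828, 4779.8, 4962, 4939.5 and 4386 with the mixture, against 4375, 4109.8, 4001, 4335 and 4065 in old controls. The lowest mixture value was just above the highest old control, the difference was 0.19 ± 0.06 and the adjusted p was 0.051, at the threshold but not past it. Its other probe sets gave 0.15, 0.17 and -0.10, the last from a probe set below the signal limit. Kcnd1, the remaining Kv4 subunit, was at -0.03 ± 0.12 (adjusted p = 0.922), with signals of 576, 625, 673, 666 and 498 in mixture mice. Among the KChIP partners Kcnip3 was at 0.06 ± 0.23, Kcnip4 at 0.08 ± 0.15, Kcnip1 at -0.02 ± 0.14 and Kcnip2 at -0.18 ± 0.07, none of them called.

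Kcnu1 encodes SLO3, a potassium channel best known from sperm. Its signals were 321, 298, 390.0, 332 and 271 with the mixture, against 466, 474, 557, 420.3 and 503 in old controls, with 511, 351, 364, 512 and 443 for α-tocopherol and 522, 366, 387, 395 and 584 for young controls. The mixture and old control groups did not overlap, while 2 of the α-tocopherol mice lay inside the mixture range. The difference was -0.57 ± 0.15 (adjusted p = 0.0304). The call was lost in 5 of the fits that left out a mouse (mixture mice 2, 4 and 5 and old control mice 3 and 5), with adjusted p from 0.0510 to 0.0850. In limma it was also lost with quantile normalization (adjusted p = 0.0594), cyclic loess normalization (0.0534) and no filter on dim probe sets (0.0515). With the β-actin covariate the difference was -0.38 (adjusted p = 0.747), and without old control mice 3 and 5 together it was -0.48 (0.165).

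**Figure D4:**
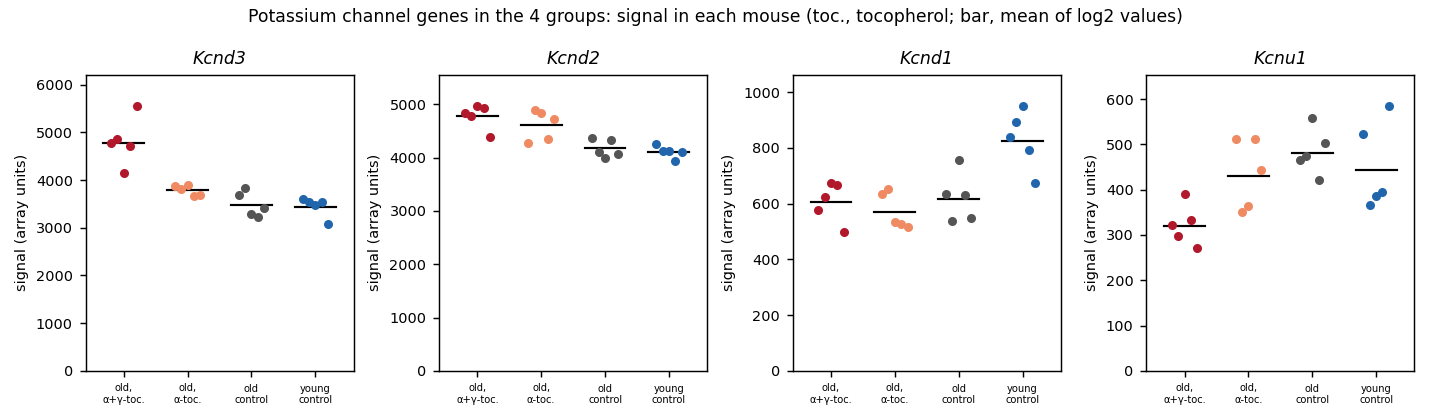
Deposited signal of each mouse for Kcnd3, Kcnd2, Kcnd1 and Kcnu1 in the mixture, α-tocopherol, old control and young control groups. The 5 mixture mice lie above every old control for Kcnd3 and Kcnd2 and below every old control for Kcnu1, and overlap them for Kcnd1.

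Of the 13 genes called with age, none was called for the mixture, and their differences from old control ran from -0.31 for Kcnc4 to 0.23 for Kcnk3. Among all 65, the 95% interval lay within 1.5-fold for 46 genes (70.8%), beside 84% of all genes. Among the lists of channels, transporters, partners and modulators above, 5 of 46 tested genes (10.9%) were called lower in mixture mice than in old controls, beside 422 of all 13351 (3.16%), and none higher. No test of the lists was made. The 5 genes were Atp1b1 (-0.30), Slc12a5, the neuronal chloride extruder (-0.27), Abcc8, the sulfonylurea receptor of neuronal ATP-sensitive channels (-0.34), Dpp10, a Kv4 partner (-0.19), and Prkaca (-0.39), a catalytic subunit of protein kinase A. No sodium or HCN channel gene was called.

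A direct comparison of the mixture with α-tocopherol called no gene among the 65 or among all 13351, beside 1163 of all genes at an unadjusted p under 0.05. Kcnd3 had the smallest adjusted p of the 65 at 0.113, with a difference of 0.34 ± 0.07 and groups that did not overlap. Its 95% interval was 0.19 to 0.48. Leaving out α-tocopherol mouse 5 brought the adjusted p to 0.0458. Kcna4, an A-type Kv1 subunit, was at 0.32 ± 0.13 and Kcnj11, the pore of neuronal ATP-sensitive channels, at 0.15 ± 0.08, while Kcnu1 was at -0.41 ± 0.15, Kcnab2 at -0.19 ± 0.10 and Kcna2 at -0.17 ± 0.08 (adjusted p from 0.378 to 0.620).

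The other 16 potassium channel genes had mean signals of 18.0 to 173 and were not tested, the dimmest tested gene being at 191. They were Kcne1, Kcne3, Kcnh5, Kcnj1, Kcnj2, Kcnj5, Kcnj14, Kcnj15, Kcnk5, Kcnk7, Kcnk15, Kcnmb4os1, Kcnn3, Kcnn4, Kcnq1 and Kcnv2. The limit of 184 is a rank among the probe sets and not a detection call, so a gene below it may still be transcribed. The residual standard deviation of the 65 tested genes had a median of 0.22 on the log2 scale, with a range of 0.07 to 0.92, beside a median of 0.18 for all genes.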

How the data were processed

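Messenger RNA of 20 neocortices was hybridised to 20 one-colour Affymetrix arrays, 1 per mouse per the labels, so p-values measure the spread between mice. The deposited values are a linear signal intensity per probe set, made by the authors with GCOS (the Affymetrix operating software, version not given) per the submitters' processing notes. The sources used here do not give the background step, summary method or detection calls. The 2% trimmed mean of every column was 1000, so a shift of all transcripts in 1 direction cannot be seen. Controls (64 probe sets) were left out. Of the other 45037, the platform annotation gave 1 symbol for 34945, several for 932 and none for 9160, and 34741 were matched to RefSeq (GRCm38.p6) by gene identifier. The potassium channel genes had 164 probe sets, none with several symbols, and 61 of 81 genes had a RefSeq promoter entry.

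Signals were used as log2(signal + 16), which understates changes of dim genes. A gene took its probe set with the highest mean, and probe sets in the top 60% (signal of at least 184) were tested in limma 3.58.1 under R 4.3.3 (lmFit, contrasts.fit, and eBayes with trend set) in 1 fit of all 4 groups, two-sided, with Benjamini-Hochberg adjustment over 13351 genes and a threshold of 0.05. SE are those of the contrast. The script was tested on simulated data. Alternatives changed the pseudocount, filter, normalization, probe set choice, spread model, groups fitted, replicate block and covariates, or left out mice.

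The genes named are those called, at most 12 per direction; where none was called, the 3 smallest p per direction; in each gene group the highest signal and the 2 smallest p for age; and called members of the other lists, at most 4 per direction. Kcnd2 and Kcnip genes beside Kcnd3, Kcna7, and the second Kcnk1 probe set for the mixture, were named after their values were seen. The potassium channel genes, lists and tests were chosen with earlier results of these data known. Detection cannot be read from the deposited table.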

Additional observations from a re-analysis of the deposited data

Results flagged for a closer look

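In 9 of 148 gene and group combinations of the 37 named genes, 1 mouse stood apart from the other 4 of its group by Dixon's criterion, and chance alone flags about 1 in 20. In α-tocopherol mice, Kcnab1 was at 6561 in mouse 5 (others 5681 to 5827) and Kcng4 at 205.6 in mouse 4 (others 248 to 253). In mixture mice, Kcnq3 was at 4360.0 in mouse 2 (others 3644 to 3790.1). In old controls, mouse 1 was apart for Kcna1 at 6587 (others 5286 to 5539.5) and for Kcnh3 at 6002 (others 4502 to 4826). Kcnj12 was at 69.9 in old control mouse 3 (others 233 to 315), which bears on its α-tocopherol difference, and Kcnq1ot1 was at 371 in old control mouse 5 (others 213 to 243). In young controls, Kcnd3 was at 3074 in mouse 5 (others 3469 to 3606) and Kcnmb4os2 at 316 in mouse 4 (others 541 to 574). No explanation was tested for any of them.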

How the results depend on the processing

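The potassium channel calls with age numbered 11 to 15 when a mouse was left out and 10 to 17 in the other settings except the β-actin covariate, which gave 7 (Kcnab1, Kcnc4, Kcnip1, Kcnip4, Kcnj8, Kcnk3 and Kcnn2 lost, at differences of the same sign, from -0.52 to 1.02; Kcna7 gained). All genes called with age numbered 1158 with that covariate and 2398 to 2806 when a mouse was left out. Kcnip3, Kcnab2, Kcnh2 and Kcnk4 stayed called in every setting that tested them. Setting array medians equal gave 3524 genes with age, 87.3% of them higher beside 54.5%, with the median of all genes at 0.11, and 15 of 16 potassium channel calls higher; Kcnab1, Kcnd1, Kcnip1 and Kcnn2 were lost. For the mixture that setting gave 678 genes with 5.01% higher, beside 30%. The cause of these changes was not tested.

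For the mixture against old control, all genes called numbered 0 with the β-actin covariate, 83 with quantile and 91 with cyclic loess normalization, 179 with the mean of a gene's probe sets, 311 without the intensity trend, 319 with only the 2 groups and 186 to 593 when a mouse was left out (186 without mixture mouse 5, 239 without old control mouse 3, 294 without old control mouse 4, 359 without old control mouse 5, 375 without mixture mouse 4). Potassium channel calls numbered 0 with the β-actin covariate, 1 with either normalization, the mean of probe sets or no filter, and 1 to 2 when a mouse was left out. Alternatives chosen after seeing the data were leaving out old control mice 3 and 5, which left 0 genes for the mixture, 0 of them potassium channel genes, and 2052 with age (10 potassium channel genes, with Kcnc4, Kcnip1, Kcnip4 and Kcnj8 lost), and a Ttr signal covariate, which gave 363 for the mixture, 2461 with age and 1 for α-tocopherol. Mixture against α-tocopherol gave 0 to 100 genes and 0 to 1 potassium channel genes when a mouse was left out (100 and 1, Kcnd3, without α-tocopherol mouse 5); α-tocopherol against old control gave 0 and 0.

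The mean of probe sets ended the calls of Kcnip1, Kcnk3 and Kcns2 with age and of Kcnd3 for the mixture. Signs turned for uncalled genes and for Kcns2. With the mean of probe sets, age differences were -0.047 for Kcns2, 0.075 for Kcnj9, -0.071 for Kcnq5 and -0.35 for Kcnq1ot1, and Kcna2 was at 0.030 for the mixture against α-tocopherol. With equal medians Kcna1 was at 0.078. Kcnq1ot1 ranged from -0.033 (without old control mouse 5) to 0.16 when a mouse was left out, with -0.023 without young control mouse 1, and was at -0.043 without old control mice 3 and 5. Kcnmb4os2 ranged from -0.076 (without young control mouse 4) to 0.17. A replicate block gave 3269 genes with age (16 potassium channel genes), 695 for the mixture (2), 0 for α-tocopherol and 1 for the mixture against α-tocopherol (0). The labels call the shared number a sample number only, and same-numbered mice correlated by -0.124 to 0.0891 for age, so the numbers were not taken to pair mice. Precision is limited by 5 arrays per group, and dim genes have the widest intervals.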

Other observations

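Tested one by one, 23 of the 114 potassium channel probe sets above the signal limit passed with age (20.2%), beside 18.9% of all probe sets with 1 symbol. They covered 19 genes, 6 of which were not called through the probe set with the highest signal. These probe sets were chosen after their values were seen. Kcnma1, the pore of the large-conductance calcium-activated channel, is the 1 gene with called probe sets in opposite directions. One measured -0.50, with signals of 687 to 1031 in old and 1056 to 1353 in young controls. The other measured 0.43, with signals of 466 to 608 in old and 343 to 437 in young controls. The transcripts that these probe sets detect were not identified here.

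Further called probe sets were higher with age for Kcnj16, an inward rectifier of glia, at 1.07 (signals of 314 to 400.1 in old and 84.4 to 289.9 in young controls), for Kcna6 at 0.66 and for Kcnh1 at 0.33. The probe sets with the highest signal were at 0.16 for Kcnj16, 0.03 for Kcna6 and -0.03 for Kcnh1. The called probe sets of Kcnv1 and of the non-coding Kcnq1ot1 were lower, at -0.60 and -0.94. For Kcnv1 the probe set with the highest signal was at -0.20. The Kcnq1ot1 probe set had signals of 130 to 197 in old and 271 to 403 in young controls, while the one with the highest signal was at 0.09.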
